A study of Mus musculus with 6 samples.

Results

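Secreted Wnt ligands, their Frizzled receptors and the secreted inhibitors of the Sfrp and Dkk families were measured in mouse testes 9 days after birth, in 3 Dmrt1 KO arrays and 3 control arrays. The genes were chosen by symbol alone: Wnt with a number and at most 1 letter, Fzd, Sfrp or Dkk with a number. This gave 36 of 17277 named genes on the array, made up of 19 Wnt, 9 Fzd, 4 Sfrp and 4 Dkk genes, each with 1 row in the table of 25631 rows. Fzd9 is in the annotation too, but no row of the table was matched to it, so it was not analysed here.

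The Dmrt1 KO samples were Cre-positive males and the control samples were Cre-negative males, all of them testes labelled P9 from a Cre line that the labels name NGN-cre. The labels list no floxed allele and do not spell out the promoter behind the Cre, so the cells in which Dmrt1 was targeted cannot be told from them, and the presence of Cre and the targeting of Dmrt1 cannot be told apart. Separate animals are not stated either, so the p-values cover the spread between these samples, which may be technical.

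Wnt proteins are lipid-modified ligands that act over short distances. They bind the extracellular domain of Frizzled receptors, and together with the co-receptors Lrp5 and Lrp6 this stabilises beta-catenin, which enters the nucleus and acts with TCF/LEF factors. Other Wnt proteins act through Frizzled receptors without beta-catenin, for example in planar cell polarity. Sfrp proteins carry a Frizzled-like domain and bind Wnt ligands outside the cell, and Dkk proteins bind Lrp5 and Lrp6. In the mouse gonad Wnt4 is known for its role in ovary formation, and Wnt5a and Wnt6 are known as Sertoli cell products that act on spermatogonia.

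Before the results, some facts on the arrays are needed. Dmrt1 itself, a transcription factor of Sertoli and germ cells, had log2 intensities of 11.98, 12.08 and 12.27 in the Dmrt1 KO arrays, against 13.59, 13.49 and 13.21 in the control arrays, a log2 fold change of -1.32 ± 0.20 (limma's SE, n = 3 arrays per group, limma adjusted p = 0.124). With each array left out the limma adjusted p of Dmrt1 ran from 0.0724 to 0.561, and under the other settings given below from 0.00314 to 0.130. The sign was negative in all of these. Dmrt1 KO replicate 3 stood apart, with no Pearson's r of log2 intensity above 0.973 to any other array, while all other pairs had at least 0.978. The start of the array number in the titles sorts the arrays into group 1 (Dmrt1 KO replicate 1, control replicate 1), group 2 (Dmrt1 KO replicate 2, control replicates 2 and 3) and group 3, which holds Dmrt1 KO replicate 3 and no control. No detection call comes with the values, so the 95th percentile of the mean log2 intensity of 1063 olfactory receptor rows, 7.19, served as a guide to background. Across all rows 8 passed a limma adjusted p of 0.05 (0.0312%, with 0.0273% higher and 0.0039% lower), and without single arrays that count ran from 0 (without any 1 control, or without Dmrt1 KO replicate 2) through 3 (without Dmrt1 KO replicate 1) to 47 (without Dmrt1 KO replicate 3). The testis markers fixed for Sertoli, germ and Leydig cells all lay above the guide.

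None of the 36 genes passed limma's test after adjustment over all rows, while the ligands Wnt3 and Wnt7a had the largest differences, 4.35-fold and 3.15-fold higher in the Dmrt1 KO arrays. The control level of Wnt7a was under the guide, and with log2(value + 50) its log2 fold change was 1.26, against 1.65 without that addition. At an unadjusted limma p of 0.05, 4 of the 36 genes were higher (Wnt3, Wnt7a, Wnt1 and Wnt10a) and 1 was lower (Wnt2b), which is 13.9% of the genes against 9.5% of all rows (4.41% higher and 5.1% lower). Leaving out control replicate 2 gave 3 such genes, and leaving out Dmrt1 KO replicate 3 gave 8. In 6 genes the groups did not overlap, 16.7% of the 36 against 15.3% of all rows (6.8% higher and 8.54% lower), a share near that of the whole table. With 1 array fewer in a group overlap is rarer by construction, and that count was 8 to 13 (11 without control replicate 3, and 11, 13 and 12 with Dmrt1 KO replicates 1, 2 and 3 left out in turn). For counts at an unadjusted p or by overlap with 1 array left out, here and below, the share over all rows was not taken. The median log2 fold change was 0.10 over the 36 genes and -0.02 over all rows, and 19 of the 36 differences were smaller than their own SE. In bulk testis RNA, fewer cells of a type and less RNA per cell cannot be told apart.

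**Figure D1:**
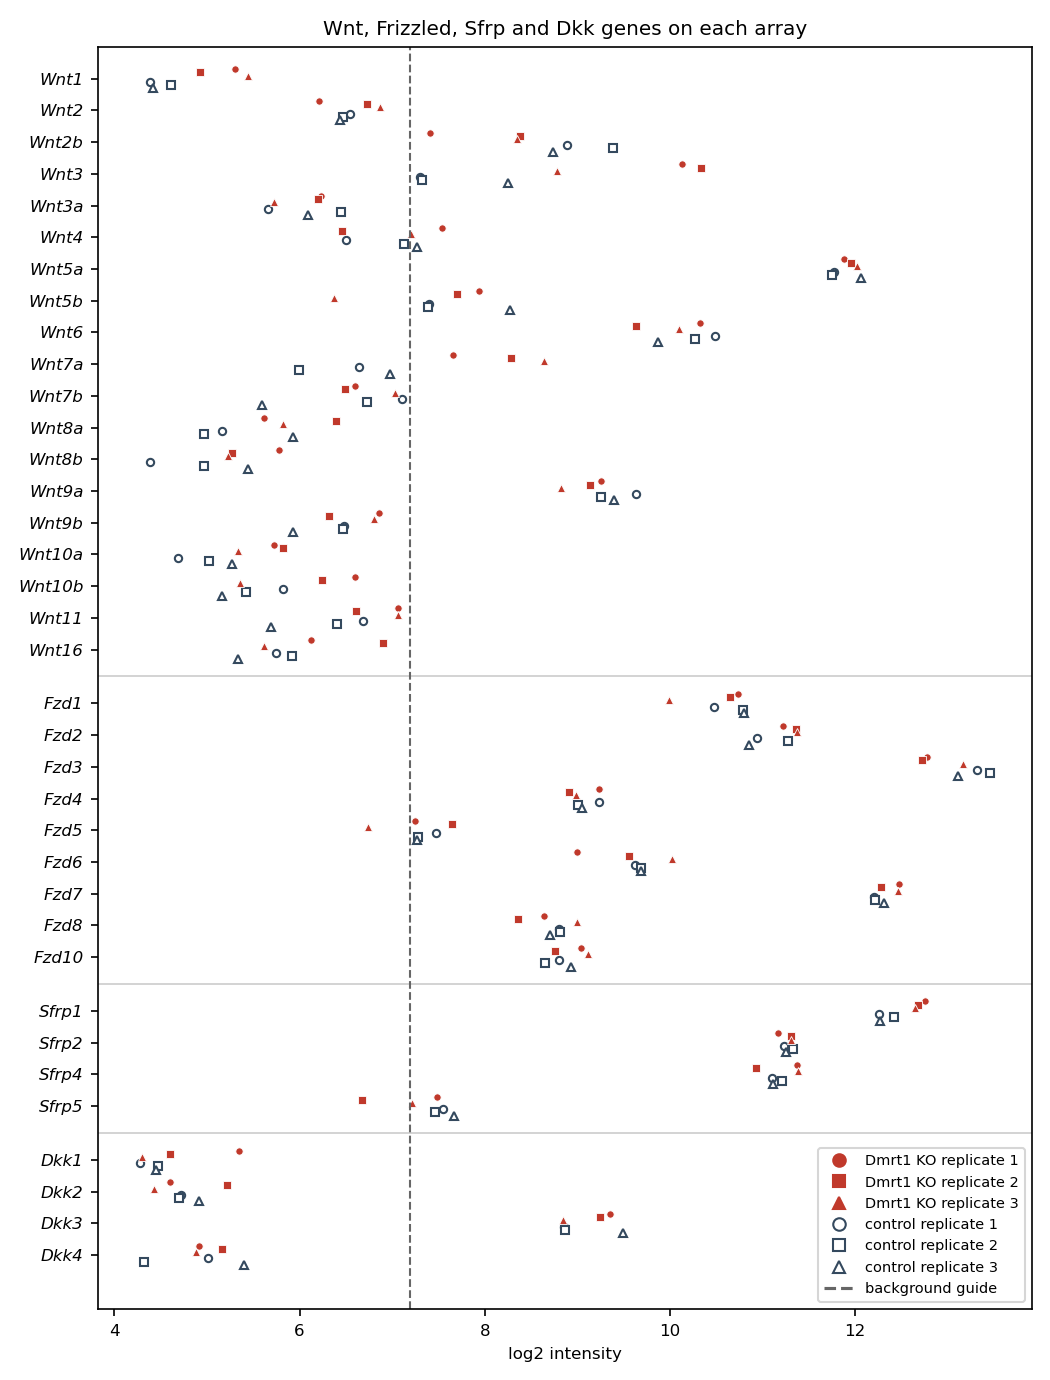
Log2 intensity (x axis) of the 36 genes on each of the 6 arrays, with filled red symbols for Dmrt1 KO and open symbols for control arrays, circles, squares and triangles for replicates 1, 2 and 3, and the background guide of 7.19 as a dashed line. Intensity depends on the probes, so levels of different genes are not to be set against each other; the 3 Dmrt1 KO points lie to the right of all control points for Wnt3, Wnt7a, Wnt1, Wnt10a and Sfrp1 and to the left for Wnt2b.

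The upstream sequences of the 3 ligands with the largest differences are shown because these differences are the ones the results turn on. Each is the 250 bases before the annotated start of its gene in RefSeq on assembly GRCm38.p6, 5′ to 3′ on the gene's strand, with GC boxes (GGGCGG, either strand) and CCAAT boxes (CCAAT, either strand) in capitals. The Wnt3 window is chr11:103773925-103774174 on the plus strand, the Wnt7a window chr6:91411354-91411603 on the minus strand and the Wnt2b window chr3:104961710-104961959 on the minus strand.
Wnt3: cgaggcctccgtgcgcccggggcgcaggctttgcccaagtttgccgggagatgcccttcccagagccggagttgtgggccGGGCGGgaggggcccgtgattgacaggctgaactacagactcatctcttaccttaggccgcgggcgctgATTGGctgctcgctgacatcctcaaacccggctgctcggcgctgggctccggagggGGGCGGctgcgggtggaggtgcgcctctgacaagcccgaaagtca
Wnt7a: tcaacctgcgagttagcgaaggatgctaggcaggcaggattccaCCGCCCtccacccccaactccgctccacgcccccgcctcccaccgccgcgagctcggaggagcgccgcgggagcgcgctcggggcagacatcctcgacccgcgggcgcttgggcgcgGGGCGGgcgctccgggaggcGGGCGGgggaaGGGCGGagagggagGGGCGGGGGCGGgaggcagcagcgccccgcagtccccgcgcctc
Wnt2b: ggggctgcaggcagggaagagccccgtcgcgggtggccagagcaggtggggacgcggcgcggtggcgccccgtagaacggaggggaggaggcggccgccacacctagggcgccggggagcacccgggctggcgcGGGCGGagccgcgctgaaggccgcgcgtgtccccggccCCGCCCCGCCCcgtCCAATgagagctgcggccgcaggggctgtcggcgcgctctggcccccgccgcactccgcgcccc

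All 3 windows were rich in G and C, with 68.0% for Wnt3, 77.6% for Wnt7a and 80.8% for Wnt2b, against a median of 52.4% over 32851 windows of all genes. The Wnt3 window held 2 GC boxes and 1 CCAAT box, the Wnt7a window 6 GC boxes and no CCAAT box, and the Wnt2b window 3 GC boxes and 1 CCAAT box, counting overlapping matches separately. A GC box was found in 32.7% and a CCAAT box in 33.8% of all windows. The letters ACANTGT, the core of the DMRT1 binding site, where N is any base, are in none of these 3 windows and in 6.47% of all windows. The letters CTTTGAT of a TCF/LEF site are in none of the 3 either and in 3.21% of all windows. Among the 24 genes of these families with a window in the table, ACANTGT was found only for Wnt16 and CTTTGAT only for Wnt5b and Wnt11. A match is a run of letters and not a site in use, and its absence says only that the letters are not in this window.

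Among the ligands, Wnt3 had the largest difference. Wnt3, a ligand of the beta-catenin branch known for its part in forming the primitive streak of the mouse embryo, is measured by accession NM_009521. It had log2 intensities of 10.13, 10.34 and 8.78 in Dmrt1 KO replicates 1, 2 and 3, against 7.30, 7.32 and 8.26 in control replicates 1, 2 and 3. Dmrt1 KO replicates 1 and 2 were far above every control, and Dmrt1 KO replicate 3 was above the highest control by less than the spread within either group. The means were 9.75 ± 0.84 in Dmrt1 KO and 7.63 ± 0.54 in control arrays (SD, n = 3 each). The log2 fold change was 2.12 ± 0.45 (SE, 95% interval 1.09 to 3.15), with an unadjusted limma p of 0.00148 and an adjusted p of 0.209.

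The Wnt3 result depends on Dmrt1 KO replicate 3. Without that array the log2 fold change was 2.61 and Wnt3 passed over all rows (limma adjusted p = 0.0267). A block term for array number, under which that array adds nothing to the comparison, gave 2.67 (adjusted p = 0.0287), and array weights gave 2.55 (adjusted p = 0.0295). Within array number group 1 the Dmrt1 KO minus control difference was 2.83 and within group 2 it was 2.55. A variance model with trend and robust settings left the fold change as it was and gave an adjusted p of 0.0483. Leaving out any other array gave log2 fold changes from 1.83 to 2.44, and Wnt3 did not pass there (limma adjusted p from 0.302 to 0.663). The sign was positive in all 14 fits run.

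**Figure D2:**
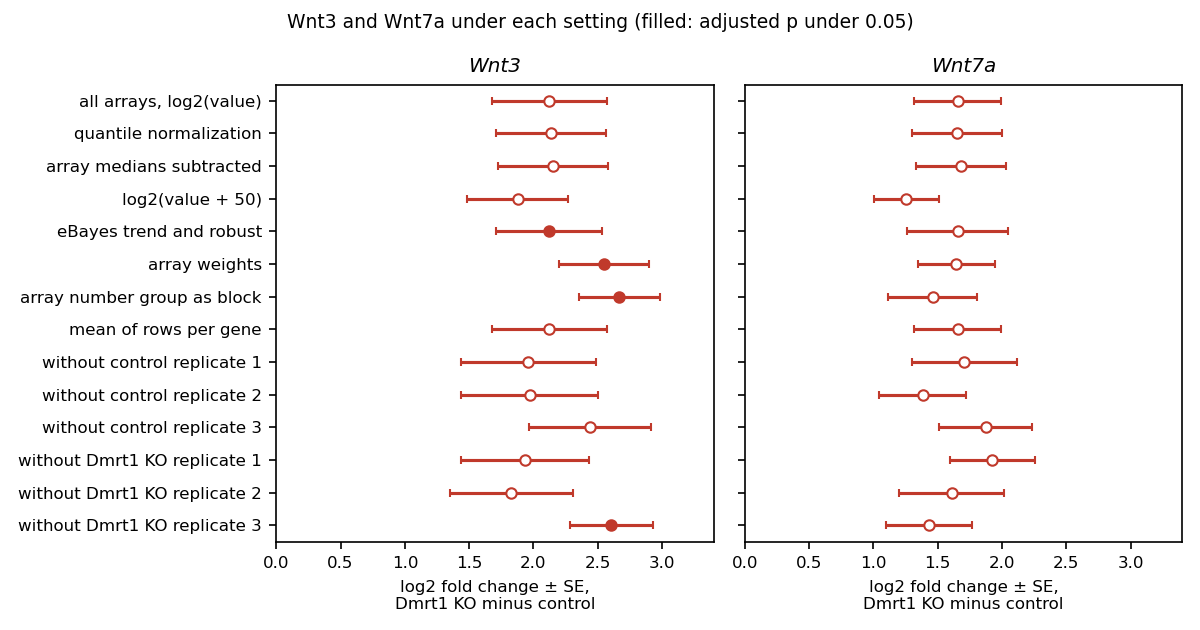
Log2 fold change of Wnt3 (left) and Wnt7a (right), Dmrt1 KO minus control, with limma's SE as bars, for all arrays and for each alternative setting listed on the y axis; filled points passed an adjusted p of 0.05. All points lie above 0; Wnt3 passed under 4 settings, all of them between 2.12 and 2.67, and Wnt7a under none.

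Wnt7a, a ligand known for patterning the Müllerian duct, had log2 intensities of 7.65, 8.29 and 8.64 in the Dmrt1 KO arrays, against 6.64, 6.00 and 6.98 in the control arrays (accession NM_009527). Every Dmrt1 KO array was above the background guide and every control array below it. The means were 8.19 ± 0.50 and 6.54 ± 0.50 (SD, n = 3 each), and the log2 fold change was 1.65 ± 0.34 (SE, 95% interval 0.87 to 2.43), with the smallest unadjusted limma p of the 36 genes, 0.00122, and an adjusted p of 0.205. Since the control level was under the guide the size of the fold depends on the scale, and with log2(value + 50) it was 1.26. Within the array number groups the difference was 1.01 in group 1 and 1.80 in group 2. Unlike for Wnt3, Dmrt1 KO replicate 3 was the highest array for Wnt7a, and without it the log2 fold change was 1.43 (adjusted p = 0.164).

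Marker lists of other cell types differed between the groups as well. Over all rows 48.0% of the differences lay above 0. The list for epididymis and rete had a summed intensity of 17227, 18209 and 12165 in Dmrt1 KO replicates 1, 2 and 3, against 9805, 8161 and 9286 in the control arrays, and 13 of its 16 markers lay above 0. Of its secretory genes, Lcn5, Lcn8, Lcn9, Adam7, Adam28 and Rnase10 were under the guide in both groups. Cst8 was above it, with means of 12.63 in Dmrt1 KO and 12.20 in control arrays and no overlap between groups. Crisp1 overlapped between groups, with log2 intensities of 9.73, 10.96 and 4.46 in Dmrt1 KO arrays, against 9.70, 4.11 and 6.49 in control arrays. The granulosa list summed to 18365 to 19765 in Dmrt1 KO arrays and 11392 to 13529 in control arrays, with 8 of 8 above 0 (Fst among them, which is also on the list of transcriptional targets) and with Foxl2 and Cyp19a1 under the guide in both groups. Nr5a2, which encodes a nuclear receptor, was the only gene of the granulosa list to pass (limma adjusted p = 0.041), with mean log2 intensities of 12.53 in Dmrt1 KO and 10.16 in control arrays, a 5.16-fold difference. Like every other row it did not pass without any 1 control or without Dmrt1 KO replicate 2. Most of the rise in the sum of the granulosa list came from Nr5a2. At an unadjusted limma p of 0.05, 3 of the 8 were higher, against 4.41% of all rows. Besides Nr5a2 these were Hsd17b1 and Bmp2, with log2 fold changes of 1.10 and 1.27. Both overlapped between groups, and the control mean of Bmp2 was under the guide. Of the 8 differences on that list 4 were smaller than their SE, Amhr2 among them at 0.10 on the log2 scale. The Leydig list summed to 108200 to 123708 in Dmrt1 KO arrays and 75247 to 96958 in control arrays (7 of 7 above 0, none under the guide), and the macrophage list to 7548 to 8010 and 9267 to 10651 (0 of 6 above 0, none under the guide in both groups). The Sertoli, germ and peritubular sums overlapped between the groups, with 5 of 9, 1 of 8 and 4 of 5 markers above 0. Among the lower germ markers was Stra8, with a log2 fold change of -1.63 (limma adjusted p = 0.147) and no overlap between groups. The endothelial sum was 16026 to 17499 in Dmrt1 KO arrays and 11633 to 15214 in control arrays (5 of 5 above 0, none under the guide). Wnt3 and the sum of the epididymis and rete list were both highest in Dmrt1 KO replicates 1 and 2, while Wnt7a was highest in Dmrt1 KO replicate 3. Not every marker of that list followed the order of its sum. In Dmrt1 KO replicates 1, 2 and 3, Pax8 had log2 intensities of 12.01, 11.76 and 11.79 and Krt8 of 6.27, 7.85 and 7.54. The part of these cell types in the Wnt3 and Wnt7a results was not tested.

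Of the other ligands, Wnt2b was lower in the Dmrt1 KO arrays. Wnt2b, a ligand of the beta-catenin branch, had log2 intensities of 7.41, 8.38 and 8.35 in Dmrt1 KO arrays, against 8.89, 9.39 and 8.74 in control arrays. No array of one group reached the other, and Dmrt1 KO replicate 1 was the lowest. The log2 fold change was -0.96 ± 0.32 (SE, 95% interval -1.69 to -0.22, a 1.94-fold difference), with a limma adjusted p of 0.407. It was -1.48 within array number group 1, -0.68 within group 2 and -0.64 without Dmrt1 KO replicate 1.

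Wnt1, a ligand known from the developing midbrain, and Wnt10a, known from skin and teeth, also did not overlap between groups, at levels under the background guide. Wnt1 had log2 intensities of 5.30, 4.93 and 5.44 in Dmrt1 KO arrays, against 4.38, 4.62 and 4.41 in control arrays, a log2 fold change of 0.75 ± 0.21 (SE, limma adjusted p = 0.332). Wnt10a had 5.72, 5.82 and 5.33 in Dmrt1 KO arrays, against 4.69, 5.02 and 5.27 in control arrays, a log2 fold change of 0.63 ± 0.24 (SE, limma adjusted p = 0.460). Both sizes depend on the scale: with log2(value + 50) each was 0.28. For Wnt10a the highest control, 5.27, was close to the lowest Dmrt1 KO array, 5.33.

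Apart from Wnt10a, given above, the ligands listed as known from gonad work gave small differences. Wnt5a, which acts mainly without beta-catenin, had log2 intensities of 11.88, 11.95 and 12.02 in Dmrt1 KO arrays, against 11.77, 11.75 and 12.06 in control arrays. The highest array was a control, and the log2 fold change was 0.09 with a 95% interval of -0.35 to 0.54. Wnt6 had 10.33, 9.63 and 10.09 in Dmrt1 KO arrays, against 10.49, 10.28 and 9.87 in control arrays, and overlapped between groups with a log2 fold change of -0.19 (95% interval -0.80 to 0.41). Wnt4 lay near the guide, with 7.54, 6.46 and 7.21 in Dmrt1 KO arrays, against 6.50, 7.12 and 7.26 in control arrays, a log2 fold change of 0.11 whose interval of -0.66 to 0.87 leaves room for a change of either sign. Wnt4 differed by 1.04 within array number group 1 and by -0.73 within group 2. Wnt3a, a ligand of the beta-catenin branch needed for the embryonic tail, was under the guide with 6.23, 6.20 and 5.72 in Dmrt1 KO arrays, against 5.66, 6.44 and 6.09 in control arrays, a log2 fold change of -0.01 (95% interval -0.62 to 0.60).

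The remaining 10 ligands overlapped between groups. Wnt11, a ligand of kidney and heart development, had a log2 fold change of 0.65 ± 0.29 (SE), Wnt10b of 0.60 ± 0.34, Wnt8a of 0.59 ± 0.32, Wnt16 of 0.54 ± 0.34, Wnt8b of 0.49 ± 0.31 and Wnt9b, known from kidney tubules, of 0.37 ± 0.25. Wnt7b (0.23 ± 0.39) and Wnt2 (0.12 ± 0.23) differed by less than their errors. All 8 of these lay under the guide in both groups. With each array left out in turn the log2 fold change ran from 0.37 to 0.86 for Wnt11, from 0.34 to 0.96 for Wnt10b, from 0.37 to 0.88 for Wnt8a, from 0.20 to 0.84 for Wnt16, from 0.22 to 0.75 for Wnt8b and from 0.19 to 0.54 for Wnt9b. The lowest of these came without Dmrt1 KO replicate 1 for Wnt10b, without Dmrt1 KO replicate 2 for Wnt8a and Wnt16, without control replicate 1 for Wnt8b and without control replicate 3 for Wnt11 and Wnt9b. Wnt9a and Wnt5b, which lay above the guide, gave -0.35 ± 0.21 and -0.35 ± 0.44. Wnt5b had the widest spread of the ligands within the Dmrt1 KO arrays, at 7.94, 7.71 and 6.37, against 7.39, 7.38 and 8.28 in control arrays.

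Grouped by level, 12 of the 19 ligands had both group means under the guide, and for 11 of these 12 the difference was above 0. Their median log2 fold change was 0.52. Over the 8288 rows of the table under the guide in both groups the median was 0.04, and 53.7% lay above 0. The median of the 12 was 0.57, 0.35 and 0.36 in Dmrt1 KO replicates 1, 2 and 3 relative to the control mean. It was 0.47 with quantile normalization (11 of 12 above 0), 0.55 with array medians subtracted (12 of 12) and 0.26 with log2(value + 50) (11 of 12), against medians of 0.01, 0.07 and 0.02 over all rows under the guide. Without Dmrt1 KO replicate 1 the median of the 12 was 0.33, without control replicate 1 it was 0.49, without control replicate 3 0.37 and with array weights 0.51. Each of these settings had 10 of 12 above 0. The grouping by level was not planned in advance. Among the other 7 ligands 3 lay above 0, with a median of -0.19. These are counts and medians of a small set of dim rows, and signal so low is not shown to come from the named gene.

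**Figure D3:**
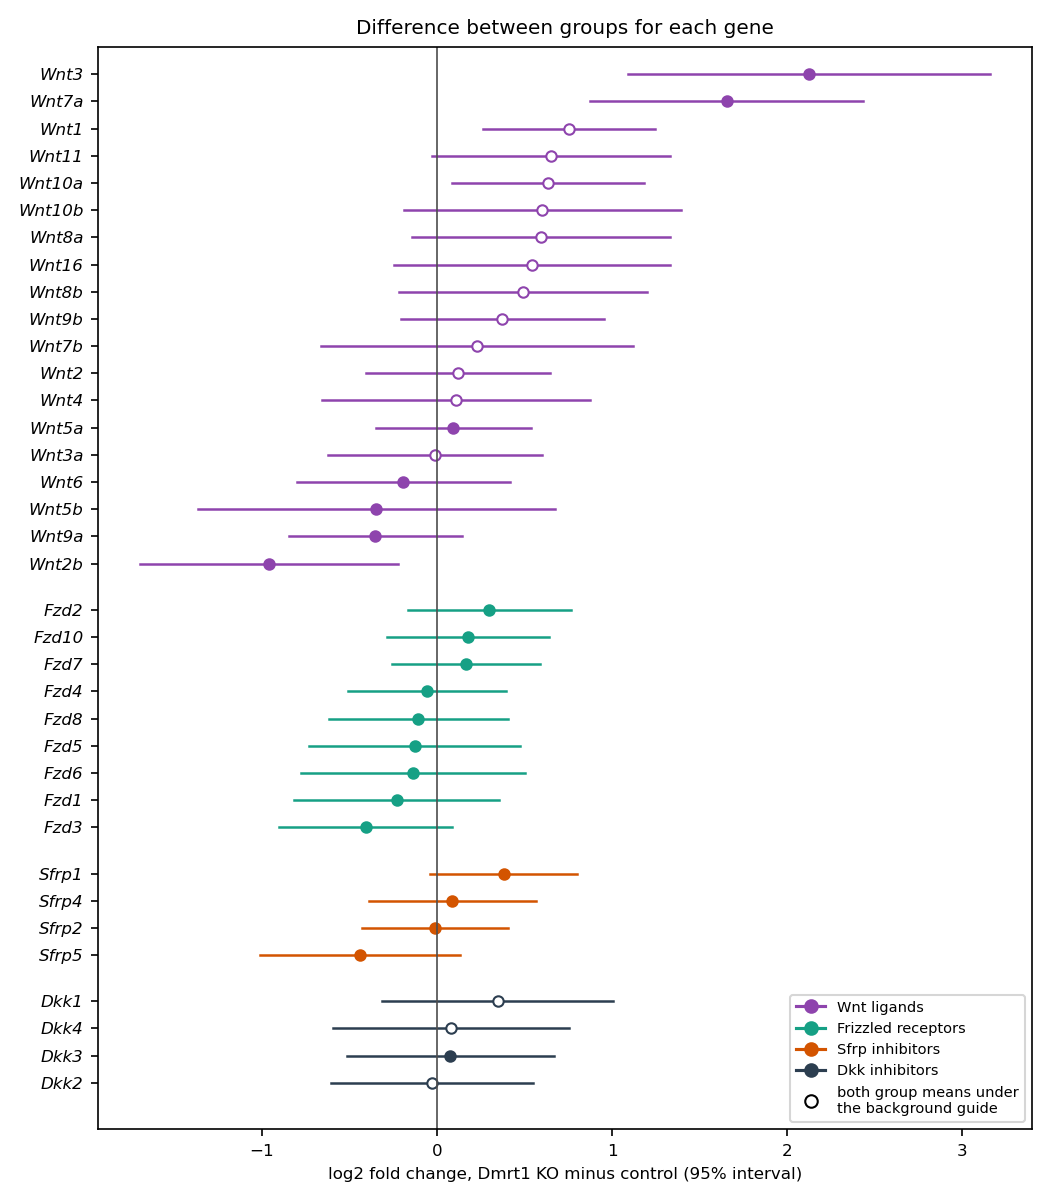
Log2 fold change of the 36 genes, Dmrt1 KO minus control (x axis), with the 95% interval from limma as lines, by family and sorted by size; open points are genes with both group means under the background guide. Wnt3 at 2.12 and Wnt7a at 1.65 lie farthest to the right and Wnt2b at -0.96 farthest to the left, while all Frizzled points lie between -0.41 and 0.30.

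The Frizzled receptors had both group means above the guide, with Fzd5 close to it (Dmrt1 KO mean 7.21, with 6.74 in Dmrt1 KO replicate 3). None of the 9 passed an unadjusted limma p of 0.05, against 9.5% of all rows, and with 9 genes that says little. Their log2 fold changes ran from -0.41 to 0.30, with 3 of 9 above 0 and a median of -0.11, and 7 of the 9 were smaller than their SE. Fzd3, a receptor of planar cell polarity, had log2 intensities of 12.78, 12.72 and 13.16 in Dmrt1 KO arrays, against 13.32, 13.45 and 13.11 in control arrays. Dmrt1 KO replicate 3 lay within the control range, and the log2 fold change was -0.41 ± 0.21 (SE, 95% interval -0.90 to 0.09, limma adjusted p = 0.600). Fzd2 had 11.22, 11.36 and 11.38 in Dmrt1 KO arrays, against 10.94, 11.27 and 10.85 in control arrays, a log2 fold change of 0.30 ± 0.20 (SE, 95% interval -0.17 to 0.76).

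Fzd1 had log2 intensities of 10.74, 10.64 and 9.99 in Dmrt1 KO arrays, against 10.48, 10.79 and 10.80 in control arrays, so that its log2 fold change of -0.23 came from Dmrt1 KO replicate 3 and was 0.00 without it. Fzd7, a receptor of stem cells in several tissues, had 12.48, 12.28 and 12.46 in Dmrt1 KO arrays, against 12.20, 12.21 and 12.31 in control arrays, a log2 fold change of 0.16 (95% interval -0.26 to 0.59). For Fzd10 it was 0.18 (95% interval -0.28 to 0.64), for Fzd8 -0.11 (-0.62 to 0.40), for Fzd4, also the receptor of norrin, -0.06 (-0.51 to 0.39), for Fzd5 -0.13 (-0.73 to 0.47) and for Fzd6, which acts with Fzd3 in planar cell polarity, -0.14 (-0.78 to 0.50). The Frizzled genes were more even in the control arrays, where their median SD was 0.11, against 0.24 in the Dmrt1 KO arrays, and 8 of 9 had the larger SD in Dmrt1 KO arrays. Over all rows the median SD was 0.30 in Dmrt1 KO and 0.25 in control arrays, and 15237 of 25631 rows had the larger SD in Dmrt1 KO arrays. The Sfrp genes also had a median SD of 0.17 in Dmrt1 KO against 0.07 in control arrays. The larger SD was in Dmrt1 KO arrays for 3 of 4 Sfrp, 11 of 19 Wnt and 2 of 4 Dkk genes, and for 24 of all 36 genes. Among the Frizzled genes Fzd6 was the clearest case, at 8.99, 9.56 and 10.03 in Dmrt1 KO arrays, against 9.62, 9.69 and 9.68 in control arrays.

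Among the Sfrp inhibitors Sfrp1 was separated between the groups by a small margin. Sfrp1, which binds Wnt ligands and is known for its role with Sfrp2 in mouse testis descent and growth, had log2 intensities of 12.76, 12.68 and 12.65 in Dmrt1 KO arrays, against 12.26, 12.42 and 12.27 in control arrays. All Dmrt1 KO arrays were above all control arrays, with a 1.30-fold difference (log2 fold change 0.38 ± 0.18, SE, 95% interval -0.04 to 0.80, limma adjusted p = 0.559). The difference was 0.50 within array number group 1 and 0.34 within group 2, and from 0.35 to 0.43 with each array left out in turn.

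Sfrp2 had log2 intensities of 11.16, 11.31 and 11.31 in Dmrt1 KO arrays, against 11.23, 11.33 and 11.26 in control arrays, a log2 fold change of -0.01 with an interval of -0.43 to 0.41. Sfrp4 had 11.37, 10.93 and 11.39 in Dmrt1 KO arrays, against 11.11, 11.21 and 11.12 in control arrays, and a log2 fold change of 0.09 (95% interval -0.39 to 0.56). Both overlapped between groups. Sfrp5 had 7.48, 6.68 and 7.21 in Dmrt1 KO arrays, against 7.55, 7.46 and 7.67 in control arrays, a log2 fold change of -0.44 ± 0.25 (SE, limma adjusted p = 0.630), and its Dmrt1 KO mean of 7.12 was under the guide. The Sfrp5 log2 fold change was -0.22 without Dmrt1 KO replicate 2, its lowest array, and -0.62 without Dmrt1 KO replicate 1.

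The Dkk inhibitors overlapped between the groups. Dkk1, the best known inhibitor of Lrp6, was under the guide at 5.35, 4.60 and 4.30 in Dmrt1 KO arrays, against 4.28, 4.48 and 4.45 in control arrays, with Dmrt1 KO replicate 1 alone standing high. Its log2 fold change was 0.35 ± 0.29 (SE, limma adjusted p = 0.770), and it was smaller than its SE without Dmrt1 KO replicate 1 (0.0457 ± 0.24) and with log2(value + 50) (0.13 ± 0.15). Dkk2 had 4.60, 5.21 and 4.43 in Dmrt1 KO arrays, against 4.72, 4.70 and 4.92 in control arrays, and Dkk4 had 4.92, 5.16 and 4.88 in Dmrt1 KO arrays, against 5.01, 4.32 and 5.40 in control arrays, both under the guide. Dkk3, a divergent member of the family and the only one of the 4 above the guide, had 9.35, 9.25 and 8.84 in Dmrt1 KO arrays, against 8.86, 8.86 and 9.49 in control arrays, a log2 fold change of 0.08 (95% interval -0.52 to 0.67).

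Other genes of the pathway were read from 4 lists, with 73 genes measured, and none of them passed a limma adjusted p of 0.05. At an unadjusted limma p of 0.05, 4 of the 73 were higher and 1 was lower, against 9.5% of all rows (4.41% higher and 5.1% lower). In the list of secretion factors and other secreted regulators (10 of 12 measured) the count was 1 higher and 1 lower, the median log2 fold change 0.05. Wif1, a secreted inhibitor that binds Wnt ligands, was the higher gene, with log2 intensities of 11.49, 12.08 and 11.85 in Dmrt1 KO arrays, against 10.22, 10.75 and 10.87 in control arrays. The groups were well separated, with a 2.28-fold difference (log2 fold change 1.19 ± 0.26, SE, 95% interval 0.60 to 1.78, limma adjusted p = 0.214), 1.26 within array number group 1 and 1.27 within group 2. With trend and robust settings its adjusted p was 0.0347. With each array left out its log2 fold change ranged from 1.00 to 1.35, and it did not pass (limma adjusted p from 0.185 to 0.663).

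Frzb, a relative of the Sfrp genes that its symbol keeps out of the chosen families, was the lower gene. It had log2 intensities of 11.22, 9.89 and 10.26 in Dmrt1 KO arrays, against 11.40, 11.56 and 11.58 in control arrays. The control arrays were close together, and Dmrt1 KO replicate 1 lay just under them, so that the difference was -0.18 within array number group 1 and -1.68 within group 2. The log2 fold change was -1.06 ± 0.33 (SE, limma adjusted p = 0.380), and it ranged from -1.44 to -0.78 with each array left out.

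**Figure D4:**
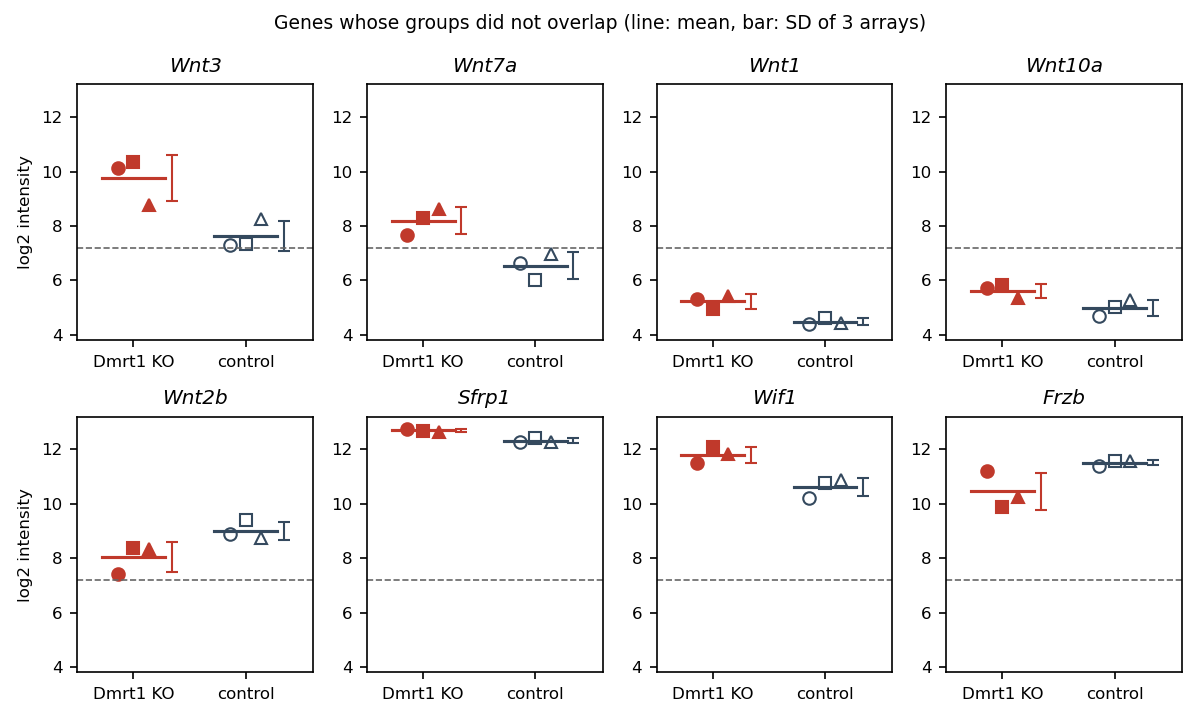
Log2 intensity (y axis) of the 6 Wnt and Sfrp genes whose groups did not overlap, and of Wif1 and Frzb, in the 3 Dmrt1 KO arrays (left, filled) and 3 control arrays (right, open), with circles, squares and triangles for replicates 1, 2 and 3, lines for means, bars for the SD and the background guide of 7.19 dashed. Dmrt1 KO replicate 3 is the lowest of its group for Wnt3 (8.78) and the highest for Wnt7a (8.64), and Wnt1 and Wnt10a lie wholly under the guide.

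Of 16 measured co-receptors and surface regulators (of 19 listed), 1 was higher at an unadjusted limma p of 0.05, Kremen2, a receptor for Dkk proteins, with a log2 fold change of 0.86 ± 0.22 (SE, limma adjusted p = 0.293), both means being under the guide. Its values were 6.94, 7.02 and 7.48 in Dmrt1 KO arrays, against 6.45, 6.16 and 6.26 in control arrays. The count was 2 without Dmrt1 KO replicate 1 or 3. The list's median was 0.06, and the co-receptors Lrp5 and Lrp6 gave -0.27 and 0.05.

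Among 29 measured cytoplasmic and nuclear components (of 32 listed) 2 were higher at that threshold and 0 lower, with a median of 0.10. Bcl9l, a beta-catenin co-activator, had a log2 fold change of 0.50 ± 0.20 (SE, limma adjusted p = 0.483) and Vangl2, a planar cell polarity protein, of 0.59 ± 0.24 (SE, limma adjusted p = 0.493), both without overlap between groups. Leaving out control replicate 3 gave 4 such genes, leaving out control replicate 1 gave 1, and leaving out control replicate 2 or either of Dmrt1 KO replicates 1 and 2 gave 0. Ctnnb1, which encodes beta-catenin, gave 0.15 (95% interval -0.38 to 0.69).

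Of 18 genes known as transcriptional targets of the beta-catenin branch, 0 passed limma's test at an adjusted p of 0.05. At an unadjusted p of 0.05 the count was 0 as well, against 9.5% of all rows. The groups overlapped for all 18, while 15.3% of all rows had no overlap. With as few as 18 genes, counts of 0 beside these shares say little. At the unadjusted p, single arrays left out gave 0 or 1 (1 without control replicate 1 and also without either of Dmrt1 KO replicates 1 and 3). The median log2 fold change was 0.04, with 11 of 18 above 0. Axin2, a feedback inhibitor widely used as a readout of the branch, had a log2 fold change of 0.13 with an interval of -0.40 to 0.66, Lef1 of 0.32 (-0.66 to 1.31), Nkd1 of -0.15 (-0.71 to 0.40), Ccnd1 of 0.02 (-0.45 to 0.49) and Sp5, under the guide, of -0.57 (-1.27 to 0.13). These intervals leave room for changes of either sign, and at Lef1 and Sp5 for more than a 2-fold one.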

How the data were processed

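Total RNA from testes, Cy3-labelled, was hybridised to NimbleGen MM8 expression arrays with 1 sample each, as the protocols state. Intensity was deposited by the authors as linear values (8.81 to 65190) for each RefSeq accession and array; RMA is the tool named per the submitters' processing notes, its version and probe annotation being not given in the sources used here. Log2 was taken, with no further normalization. Accessions without version were matched to RefSeq symbols (GRCm38.p6), which named 17780 of 25631 rows (69.4%).

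The limma package (3.58.1, under R 4.3.3) fitted all rows by lmFit and eBayes over 6 arrays, unfiltered and without covariates, with Benjamini-Hochberg adjustment over all rows and a threshold of 0.05. Errors are limma's moderated SE (4 residual plus 3.96 prior degrees of freedom); the number of arrays limits the precision. With 3 arrays a group no exact permutation p can fall under 0.05, so none was used. The fit was tested on simulated data. Replicate numbers follow deposition and pair no samples. Figures were drawn with matplotlib version 3.10.9.

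The genes, lists and alternatives were chosen with earlier results of these data known. The rule for named genes took the 4 smallest limma p per family, genes without overlap, 8 genes known from gonad work, and up to 4 genes per pathway list with unadjusted p under 0.05. Other genes named, with values, were chosen after their values were seen, as were the 3 promoters.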

Additional observations from a re-analysis of the deposited data

How the results depend on the processing

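The count of all rows called (8) was 52 without the dimmest 50% of rows, 81 with trend and robust settings, 60 with array weights, 49 with a block term for array number and 34 at an adjusted p of 0.1, and ran from 0 to 47 with each array left out. Calls among the 36 genes at an adjusted limma p of 0.05 (0) were 1, Wnt3, with trend and robust settings, with array weights and with the block term, and ran from 0 to 1 with each array left out. The count at an unadjusted limma p of 0.05 (5) was 10 with array weights, 8 with the block term and 6 with trend and robust settings. It was 4 with log2(value + 50) and 1 of 13 without the dimmest 50% of rows. The share over all rows was not taken under these settings. The 6 genes without overlap became 1 of the 13 that remain without the dimmest 50% of rows, and ran from 8 to 13 with each array left out, where fewer arrays overlap less by construction. The median log2 fold change of 0.10 was -0.0104 over those 13 genes and 0.10 to 0.19 with each array left out.

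The log2 fold changes of 16 genes, from -0.35 (Wnt5b) to 0.23 (Wnt7b) in the fit with all arrays, changed sign under some settings. With array medians subtracted Dkk2 was 0.001, Sfrp2 0.0201 and Wnt3a 0.0171, and with quantile normalization Sfrp2 was 0.0151. With the block term Dkk2 was 0.18, Fzd1 0.024, Fzd5 0.12, Sfrp4 -0.0172, Wnt3a 0.20, Wnt5b 0.16 and Wnt7b -0.0329. With array weights Dkk2 was 0.18, Fzd5 0.058, Sfrp4 -0.0229, Wnt3a 0.12, Wnt4 -0.0164, Wnt5b 0.0147 and Wnt7b -0.0377. With each array left out, the ranges that crossed 0 were -0.26 to 0.13 for Dkk2, -0.0325 to 0.29 for Dkk3, -0.22 to 0.33 for Dkk4, -0.37 to 0.0004 for Fzd1, -0.15 to 0.0091 for Fzd4, -0.35 to 0.11 for Fzd5, -0.39 to 0.13 for Fzd6, -0.27 to 0.0442 for Fzd8, -0.0357 to 0.0388 for Sfrp2, -0.0148 to 0.31 for Wnt2, -0.21 to 0.18 for Wnt3a, -0.13 to 0.41 for Wnt4, -0.65 to 0.14 for Wnt5b, -0.36 to 0.0011 for Wnt6 and -0.22 to 0.54 for Wnt7b. The cause was not tested. The other 20 genes kept their sign in all settings run for them, Wnt3, Wnt7a and Wnt2b among them. No paired analysis was possible because the titles carry no replicate numbers that pair single arrays; the block term for array number, given above, was the only blocked fit. Values under the background guide, held by 15 of the 36 genes in both groups, limit what can be said of those genes.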
